A study of Mus musculus with 3 samples.

Results

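The 3 caudal-type homeobox factors Cdx1, Cdx2 and Cdx4 and 4 genes of absorptive gut epithelium, Fabp1, Fabp2, Vil1 and Lgals2, were followed through a differentiation of mouse embryonic stem (ES) cells towards hepatic cells. The 7 genes were taken by the gene name printed in the scanner files and are covered by 9 of the 41174 gene probes. The set was chosen by its levels on days 0, 5 and 7 on these same arrays, so the differences given for it are a description and carry no test. E14.1 cells, an established mouse ES line, were sampled as undifferentiated cells grown serum-free on gelatin with LIF and BMP4 (day 0), as definitive endoderm after both factors had been exchanged for activin A on a collagen IV coat (day 5), and as early hepatic cells after a further 2 days in which BMP4 and basic FGF joined activin A (day 7). Total RNA of each day was hybridised to 1 one-colour (Cy3) array, all 3 arrays on 1 slide, so there is no replicate and every difference is between 2 arrays. The added factors and the longer culture cannot be told apart in the day 7 cells.

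Cdx proteins bind DNA through a homeodomain, set posterior identity along the body axis partly through the Hox genes, and respond to Wnt, FGF and retinoic acid signals in the caudal embryo. Cdx2 is also required for the trophectoderm of the blastocyst and for intestinal rather than foregut identity of the later gut epithelium, and Cdx1 joins it there. Villin (Vil1) bundles the actin of microvilli, Fabp1 and Fabp2 carry fatty acids in the cytosol of liver and intestine and of intestine alone, and Lgals2 is a galactose-binding lectin found in gut epithelium.

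Levels are the log2 of the processed spot intensity minus the log2 of the array's 75th percentile, so that 0 is that percentile (1564, 2051 and 2053 intensity units on days 0, 5 and 7). A spot not marked as well above background gives a bound only. A gene is called higher or lower at 2-fold, a log2 difference of 1, where the brighter array is well above background. Normexp, named below as an alternative, is a model-based background correction. A constant of 50 intensity units was added after it, before the log2. That added constant by itself compresses differences between dim spots. Markers of the labelled states were checked first. All 6 ES cell genes on the list, Pou5f1 and Nanog among them, were lower on day 5 than on day 0, and all 8 definitive endoderm genes, with Foxa2 364-fold and Sox17 179-fold, were higher. On day 7 the liver-secreted proteins Afp, Apob and Ttr were far above day 0, but Alb, the main serum protein of the mature liver, was not well above background. Of 10 secreted liver proteins compared, 6 were higher and 3 lower on day 7 than on day 0. The lower ones were Ahsg (25.3-fold), Trf (5.7-fold) and Fgg (2.34-fold).

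Of the 7 genes, 5 (Cdx2, Lgals2, Fabp1, Fabp2 and Vil1) passed 2-fold upwards between days 5 and 7, Cdx4 passed it downwards and Cdx1 was dim on every array. Over the 21653 genes compared, 5.97% were higher and 8.38% lower between these days. The same 5 also stood above day 0 on day 7, and none stood below it, where 16.2% and 19.1% of genes were. On day 5 against day 0 the set had gone several ways, with Vil1 and Cdx4 higher, Cdx2 lower and the other 4 not called, beside 16.5% and 16.1% of genes. The median log2 difference of the 7, with a gene dim on both arrays entered as 0, was 0.00 between days 5 and 0 and -0.11 over all genes compared. Between days 7 and 0 it was 2.67, beside -0.19 over all genes, and between days 7 and 5 it was 2.81, beside -0.06. In RNA from a whole culture, more cells that make a transcript and more transcript per cell cannot be told apart.

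**Figure D1:**
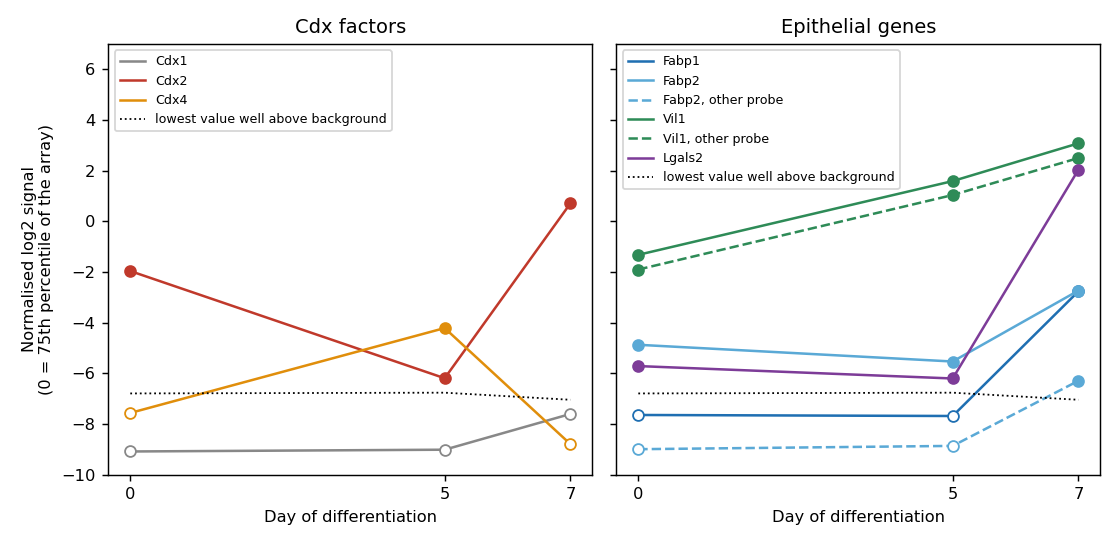
Normalised log2 signal (0 is the array's 75th percentile) of each probe on days 0, 5 and 7, for the Cdx factors on the left and the epithelial genes on the right, 1 array per day. Filled points were well above background, open points were not, dashed lines are the other probe of a gene and the dotted line is the lowest value well above background. Cdx2 dips on day 5 and is highest on day 7, Cdx4 is visible on day 5 only, and Lgals2 lies near the dotted line on days 0 and 5 and at 2.04 on day 7.

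The stretches just upstream of the genes are given for the 2 members seen mainly on day 7 that hold a caudal motif, Lgals2 and Fabp1. Promoters of 6 of the 7 members were in the RefSeq table used (build GRCm38.p6), and the 250 bases before the annotated start were searched on both strands. The caudal motif was taken in a longer form, CCATAAA, and in a short form, TTTATG, which lies within the reverse complement of the longer one. The motif of Hnf4 was AAAGTCC and that of the Gata factors was AGATAA. The TATA box was searched as the letters TATAAA. Capitals mark the matches. The coordinates are chr15:78855530-78855779 (minus strand) for Lgals2 and chr6:71199629-71199878 (plus strand) for Fabp1.
Lgals2: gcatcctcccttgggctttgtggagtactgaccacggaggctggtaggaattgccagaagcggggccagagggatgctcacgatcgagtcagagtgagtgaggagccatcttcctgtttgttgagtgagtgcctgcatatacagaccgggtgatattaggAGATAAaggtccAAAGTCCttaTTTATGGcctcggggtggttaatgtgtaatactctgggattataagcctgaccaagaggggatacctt
Fabp1: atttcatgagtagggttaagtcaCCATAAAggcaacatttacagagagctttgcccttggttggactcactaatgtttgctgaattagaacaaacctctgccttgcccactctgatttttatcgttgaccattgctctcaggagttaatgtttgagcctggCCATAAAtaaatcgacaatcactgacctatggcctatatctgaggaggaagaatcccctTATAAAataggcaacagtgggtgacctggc

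Lgals2 held, from -90 to -62 before its start, a Gata, an Hnf4 and a longer caudal match in that order. Fabp1 held the longer caudal match at -227 to -221 and again at -89 to -83, and a TATA box at -30 to -25. In the windows of Cdx2, Cdx4, Fabp2 and Vil1 none of these letters were found. Of 27025 promoters of the same length, 2.45% hold the longer caudal motif, 11.1% the short form, 3.65% the Hnf4, 10.3% the Gata and 13.0% the TATA letters. A match is a run of letters and does not show that a factor was bound there.

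**Figure D2:**
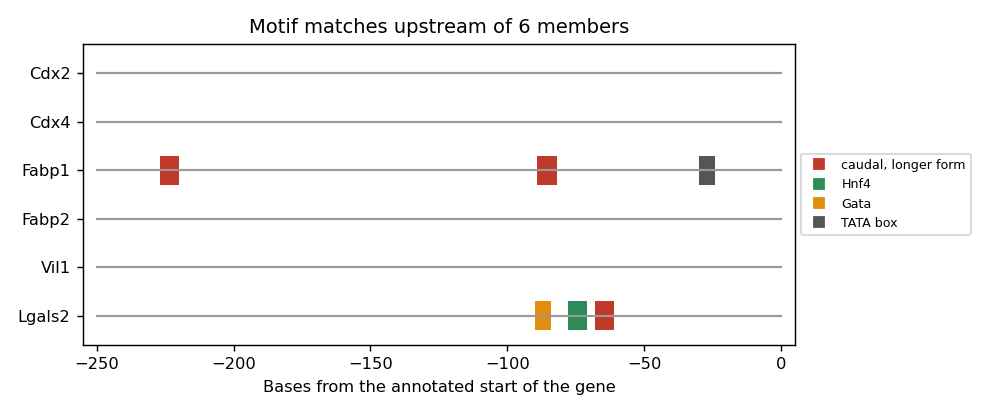
Positions of the motif matches in the 250 bases before the annotated start of 6 members (horizontal axis in bases from the start, a row per gene, both strands). The short caudal form is not drawn because each of its matches lies inside a longer one. Matches of Lgals2 and Fabp1 lie between -90 and the start, apart from the first caudal match of Fabp1, and the rows of Cdx2, Cdx4, Fabp2 and Vil1 are empty.

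Cdx2, the factor of trophectoderm and intestine, had a level of -1.96 in ES cells, -6.19 in day 5 endoderm and 0.71 in day 7 cells. The spot is on chromosome 5, 148112547 to 148112606, minus strand, in the mouse build mm9. In intensity units it read 402 ± 40.3, 28.1 ± 4.83 and 3354.5 ± 335, where the error is the extraction software's own estimate for that spot and not a replicate spread. The order of the days was therefore day 7, day 0, day 5, and all 3 readings were well above background. Day 5 was 18.8-fold below day 0, and day 7 was 119-fold above day 5 and 6.36-fold above day 0. The day 7 difference over day 5 was the third highest among all differences measured on both arrays. The day 5 signal was near the background. Both differences that use it shrank with the refitted normexp correction and its added constant of 50 units. They were then -2.57 and 5.10 on the log2 scale. The day 7 difference over day 0 stayed between 2.53 and 2.71 over the 9 alternatives. The sequence of calls seen for Cdx2 (lower on day 5, then higher than both earlier days) was shared by 45 of the 21653 genes, 0.208%.

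Cdx4, a factor of the caudal streak and tail bud, had levels of -7.56, -4.21 and -8.79 on days 0, 5 and 7. Its probe lies on chromosome X, 100525314 to 100525373, plus strand. Only the day 5 spot was well above background, at 111 ± 13.2 intensity units, against 8.31 ± 3.07 on day 0 and 4.64 ± 3.38 on day 7. Day 5 thus stood at least 5.98-fold above day 0, and day 7 at least 7.08-fold below day 5. The refitted normexp correction put the first of these at 0.90 (log2), under the 2-fold limit, and the second at -1.35. The array with the lowest Cdx2 signal was thus the only array with Cdx4 above background.

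Cdx1, which acts beside Cdx2 in the intestine, was not well above background on any array. Its probe (chromosome 18, 61180063 to 61180122, minus strand) read 2.89 ± 2.89, 3.97 ± 3.96 and 10.6 ± 3.39 intensity units on days 0, 5 and 7. No difference can be given for it, and its levels of -9.08, -9.01 and -7.60 lay below the lowest value well above background on each array (-6.79, -6.76 and -7.04).

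Lgals2, whose upstream stretch holds Gata, Hnf4 and caudal letters, was the member with the greatest difference on day 7. Its levels were -5.71 in ES cells, -6.20 on day 5 and 2.04 on day 7, from a probe on chromosome 15, 78681315 to 78681374, minus strand. The spot read 30.0 ± 4.40, 27.9 ± 5.36 and 8421 ± 842 intensity units, so days 0 and 5 were both just above background. Their difference of -0.49 (log2) is under the 2-fold limit, and probes printed as 10 spots at such dim signals had a median spot SD of 0.190 on each of these arrays. Day 7 was 301-fold above day 5, the second highest measured difference, and 214-fold above day 0. The refitted normexp correction gave log2 differences of 6.32 and 6.03 in place of 8.24 and 7.74.

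Fabp1, the fatty acid carrier of liver and intestine, was seen on day 7 only. Its levels were -7.64, -7.68 and -2.76 on days 0, 5 and 7 (chromosome 6, 71154906 to 71154965, plus strand). In intensity units these are 7.86 ± 3.22, 9.97 ± 4.58 and 303.1 ± 30.5, of which the first pair was not well above background. Day 7 was at least 16.0-fold above day 5 and at least 16.4-fold above day 0, and the refitted normexp correction put these at 2.07 and 1.93 (log2).

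Fabp2, the intestinal paralogue, was read by 2 probes 2524 bases apart on chromosome 3, and they did not give the same call. The brighter probe (122602276 to 122602335, plus strand) had levels of -4.87, -5.53 and -2.73, with day 7 at 7.00-fold above day 5 and 4.43-fold above day 0. The other (122599692 to 122599751) was dim on days 0 and 5 and reached only -6.29 on day 7, at 26.2 ± 4.37 intensity units. Its day 7 reading was at least 1.39-fold above day 5 and at least 1.42-fold above day 0, so it was not called. Both probes were brightest on day 7, and with the median over both the differences were 1.64 and 1.32 (log2), still past 2-fold. The refitted normexp correction put those of the brighter probe at 1.70 and 1.27.

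Vil1 was the only epithelial member already far above ES cells on day 5. Its levels were -1.32, 1.59 and 3.08 on days 0, 5 and 7 by one probe (chromosome 1, 74481962 to 74482021, plus strand), and -1.90, 1.04 and 2.50 by the other (74481982 to 74482041). The probes share 40 bases and are not independent readings. Day 5 was 7.55-fold and 7.64-fold above day 0, and day 7 was 2.81-fold and 2.76-fold above day 5. Vil1 was bright on every array, at 17391 ± 1740 intensity units on day 7, and its differences moved least of all members with the processing, by at most 0.15 (log2).

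**Figure D3:**
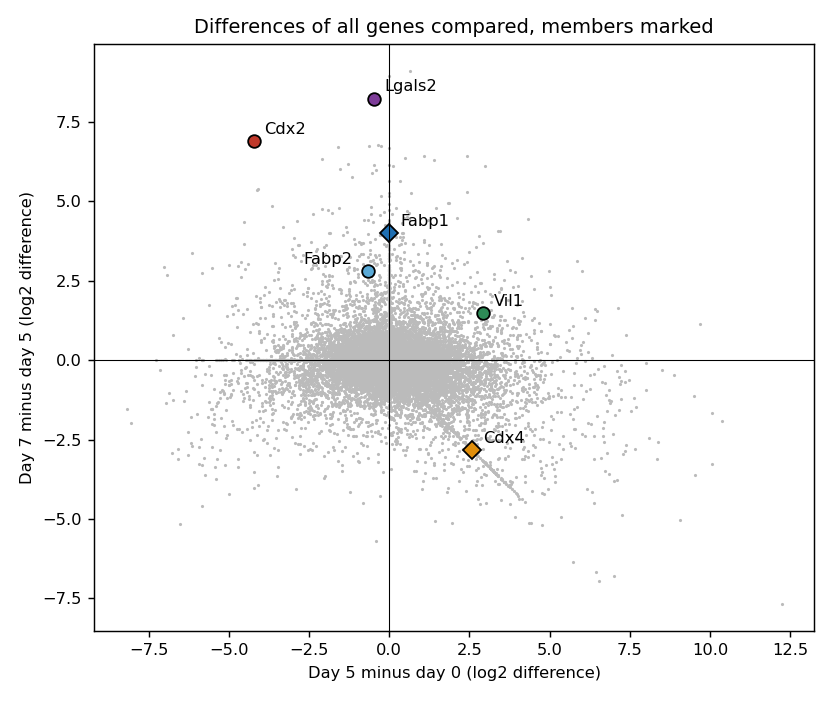
Log2 difference of day 5 against day 0 (horizontal axis) and of day 7 against day 5 (vertical axis) for the 21653 genes compared (grey) and the 6 members with a value (coloured; diamonds are bounds). Cdx2 lies at -4.23 and 6.90, Lgals2 at -0.49 and 8.24, Vil1 at 2.92 and 1.49, and Cdx4 at 2.58 and -2.82. The grey diagonal streak near Cdx4 holds genes that were above background on day 5 alone and have bounds in both directions.

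Genes of the absorptive enterocyte, the cell in which the 4 epithelial members are at home, did not share the members' direction as a list. Of 25 such genes on the array (brush border enzymes, transporters and scaffold proteins), 21 could be compared, and 3 were higher and 3 lower on day 7 than on day 5 (median log2 difference -0.12, beside -0.06 over all genes). Against day 0, 4 were higher and 9 lower on day 7 (median -0.56, beside -0.19). Those above day 5 were the peptidase Dpp4 (30.7-fold), Eps8l3, an adaptor of microvilli (3.15-fold), and the apolipoprotein Apoa4 (3.12-fold). The disaccharidases Sis and Lct had levels of -6.10 and -6.64 on day 7, against -5.36 and -5.14 on day 5, and only Lct passed the limit, at 2.83-fold lower. Gpa33, an intestinal surface antigen, was at least 132-fold lower on day 7 than on day 0, and the fructose carrier Slc2a5 was 40.6-fold lower. Mgam, another brush border enzyme, went the other way, at 62.8-fold above day 0 on day 5 and 36.6-fold on day 7. Its level on day 7 was -0.59. Cdh17, the cadherin of intestinal epithelium, and the peptide transporter Slc15a1 were not well above background on any array. The summed level of the 25 genes, in units of the 75th percentile, was 34.8, 23.6 and 45.2 on days 0, 5 and 7. Most of it came from the membrane linker Ezr, at levels of 4.81, 4.13 and 4.78. Dpp4, at -2.95, -1.13 and 3.81, added to it mainly on day 7. The other 23 genes summed to 6.52, 5.61 and 3.70.

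Secretory and crypt genes of the intestine did not stand higher on day 7 than on day 5 either. Of 21 on the array, 13 could be compared, and none passed 2-fold upwards and 5 passed it downwards between these days (median -0.44). On day 7, 12 of the 21 were well above background. Muc2, the mucin of goblet cells, Atoh1, the secretory fate factor, and Isx, an intestinal homeobox factor, were dim on all 3 arrays. The stem cell receptor Lgr5 exceeded its day 0 bound at least 40.0-fold on day 5 and 42.7-fold on day 7, although its other probe was dim throughout. Smoc2 was 9.63-fold and Spdef, a goblet cell factor, 3.80-fold lower on day 7 than on day 5.

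A list of gut transcription factors differed more between days 0 and 5 than between days 5 and 7. It shares Foxa2 and Gata4 with the definitive endoderm genes. Of 12 compared, 7 were higher and 1, Klf5, lower on day 5 than on day 0 (median 2.99), and 2 were higher and 1 lower on day 7 than on day 5 (median -0.13). Those with a further step on day 7 were Hnf4a (3.44-fold) and Sox9 (3.33-fold), and Gata6 was 3.01-fold lower. Each of Hnf4a, Sox9 and Gata6 had another probe under 2-fold.

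**Figure D4:**
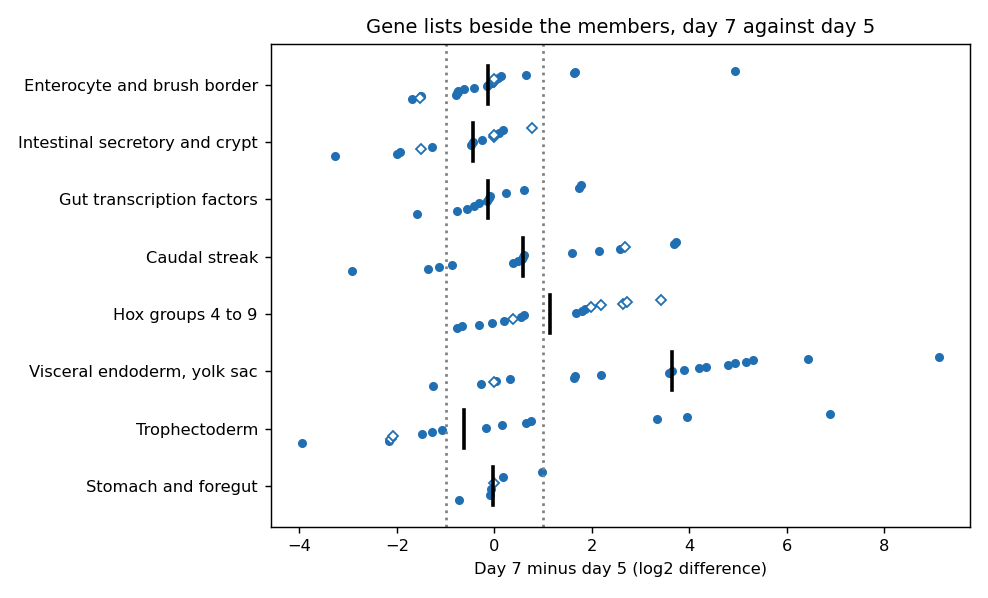
Log2 difference of day 7 against day 5 for each compared gene of 8 gene lists (filled circles were measured on both arrays, open diamonds are bounds or dim on both), with the median as a black bar and the 2-fold limits dotted. The visceral endoderm and yolk sac genes have a median of 3.65, the Hox genes 1.14 and the enterocyte genes -0.12. The rightmost point of the trophectoderm list is Cdx2 itself at 6.90.

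Vil1 and Cdx2 are also known outside the intestine, and markers of other tissues were read for that reason. Of 19 genes of visceral endoderm and yolk sac, 14 were higher and 1 (Rbp4) lower on day 7 than on day 5, with a median of 3.65 on the log2 scale. The endocytic receptors Cubn and Lrp2 were 27.9-fold and 20.4-fold higher and their adaptor Dab2 30.8-fold, beside Afp, Apob, Ttr and Apoc2. The list's summed level was 36.7, 18.6 and 138 units of the 75th percentile on days 0, 5 and 7. Most of the day 0 sum came from Rhox5, at a level of 4.83. As a list, the visceral endoderm genes moved with Cdx2, Lgals2, Fabp1, Fabp2 and Vil1 between days 5 and 7. Their part in the members' differences was not tested. The list shares Apoa4 with the enterocyte genes. Of 10 secreted liver proteins compared, Fabp1 being a liver carrier too, 4 were higher and none lower on day 7 than on day 5 (median 0.45), and the summed level of the list was 1.35, 1.01 and 27.5. It shares Afp, Apob, Ttr, Apoa1 and Trf with the visceral endoderm list, and without these its sum was 1.03, 0.356 and 1.29.

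Of 14 trophectoderm genes, Cdx2 included, 3 were higher and 7 lower on day 7 than on day 5 (median -0.63). Hand1 was 15.6-fold and Plac1 10.0-fold higher, whereas the keratin Krt7 was 15.4-fold, Elf5 4.47-fold and Eomes 2.12-fold lower. Against day 0, 6 were higher and 4 lower on day 7, with Eomes 51.2-fold, Gata3 12.7-fold and Elf5 at least 12.1-fold higher. On day 5 Eomes, Gata3 and Elf5 were already 108-fold, 11.4-fold and at least 53.9-fold above day 0. The 4 lower on day 7 were Rhox6 (at least 151-fold), Tfap2c (15.3-fold), Esx1 (4.86-fold) and Krt7 (2.34-fold). The trophoblast genes Tpbpa and Rhox6 were not well above background on day 7. The summed level of the 14 genes was 12.4, 23.9 and 18.3 on days 0, 5 and 7. Of 12 stomach and foregut genes, 6 could be compared and none passed 2-fold on day 7 against day 5. The foregut and pancreas factor Pdx1 and the lung and thyroid factor Nkx2-1 were dim on all arrays.

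In the caudal streak, where Cdx factors act in the embryo, 14 of 15 listed genes stood above day 0 on day 7. The share over all genes compared was 16.2%. With the median over probes the count was 13, and Nkx1-2 then stood at -0.32 (log2). On day 5, 11 were already higher and 1 lower than on day 0 (median 1.54). The summed level of the list was 2.94, 56.4 and 26.1 on days 0, 5 and 7, highest on day 5. Against day 5, 6 were higher and 3 lower (median 0.58). Wnt3a, the ligand that acts upstream of Cdx genes in the tail bud, had levels of -4.41, -5.24 and -1.55 on days 0, 5 and 7 and was 12.8-fold higher on day 7 than on day 5. Sp8 was 6.01-fold and Msgn1, a factor of presomitic mesoderm, 4.43-fold higher. Nkx1-2 was 13.3-fold higher by its brightest probe, but its 3 probes disagreed and their median was 0.71 (log2). Fgf8 ran the other way, 7.61-fold lower on day 7 than on day 5, and the retinoic acid-degrading enzyme Cyp26a1 was 2.21-fold lower. Day 5, the array with Cdx4 above background and the lowest Cdx2, was also the array with the highest Fgf8 (3.95) and with Wnt3a at its lowest.

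The Hox genes of groups 4 to 9, among which are targets of Cdx proteins, showed 8 of 16 compared genes higher and none lower between days 5 and 7 (median 1.14). With the refitted normexp correction the count was 4. Hoxb7 was at least 10.8-fold, Hoxc9 at least 6.62-fold and Hoxd4 at least 6.23-fold higher. All of these signals were low, with Hoxb7 at -3.33 and Hoxc9 at -4.04 on day 7. On day 5 the list had 1 gene higher and 6 lower than on day 0. Against day 0, 5 were higher and 1 lower on day 7 (median 0.53), and none was higher with the refitted normexp correction. In the main processing, Hoxc9 and Hoxd4 differed between days 7 and 0 by 0.67 and 0.77 (log2), under 2-fold, and Hoxb7 by 1.14.

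Paralogues of the epithelial members gave varied pictures. Among 9 lipid-binding relatives of Fabp1 and Fabp2, only Fabp3, the heart-type carrier, was higher on day 7 than on day 5 (41.6-fold), and Fabp7 was 2.03-fold lower. Fabp3 had levels of 3.73, -0.38 and 5.00 on days 0, 5 and 7, the same order of days as Cdx2. Of 7 relatives of villin, the actin-severing Gsn was 5.20-fold higher on day 7 than on day 5, and Vill (4.50-fold) and Scin (3.94-fold) were lower. Of 6 galectins besides Lgals2, Lgals3 was 8.03-fold higher, after being 31.7-fold lower on day 5 than on day 0. Lgals4, the other gut galectin, had levels of -2.02, -1.55 and -2.29 and was not called in any comparison, although its other probe was at 1.04 (log2) for day 5 against day 0.

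The genes whose pair of differences (day 5 against day 0, day 7 against day 5) lay nearest to a member were found by Euclidean distance over 3 arrays. This is a likeness of 2 numbers and says nothing of shared control. For Cdx2, among 13747 named genes above background on all arrays, these were Fabp3 (distance 1.53 on the log2 scale), Lama1, Nrk, Gc and Apom (2.84). For Lgals2 they were Afp (1.45), Col3a1, Gc, Pnoc and Glipr1 (2.21). Few genes were close to either, whereas Vil1 had Cyp3a13 at 0.06 and Zfpm2 at 0.08, and Fabp2 had Gucy1b1 at 0.05 and Slc7a9 at 0.14. No neighbours are given for Fabp1 and Cdx4, whose differences rest on dim spots and are bounds.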

How the data were processed

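Gene expression was measured in 3 samples, 1 array each, grouped by the cell type in the labels. Per the file headers, spots were quantified by the authors in Feature Extraction 10.5.1.1 (Agilent), spatially detrended, and probe positions are those of mm9. The deposited scanner files hold intensity on a linear scale. The processed (background-corrected) intensity was used, with the mean signal and local background for an alternative. The deposited value table holds log2 values whose medians are equal across the arrays (7.1678). The step that equalised them is not stated in any source here.

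There were 43379 gene spots per array. Spots marked as outliers (104 to 149 per array) were left out, spots of a probe were averaged, and 70.9% to 71.7% of spots were well above background. None was saturated. Probes were named through RefSeq accessions (24844) or symbols (6045) of GRCm38.p6, and 10285 kept the file's name. A gene was represented by its probe above background on most arrays, then by the brightest. Of 28578 names, 21653 were above background on at least 1 array. A dim reading counted as its own value or the array's lowest value above background, whichever was higher ("at least N-fold"), and to no difference where both were dim.

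The members and the 18 gene lists were chosen with earlier results of these data known. Some listed genes and motifs are not reported here. The rule for names took all members, up to 4 genes past 2-fold per list and direction, label markers, and the nearest patterns (up to 5). A few other list genes are named for their role or because they were dim, after their values were seen. No test was possible with 1 array per day. The number of arrays limits the precision. Python 3.11.15, R 4.3.3 and limma 3.58.1 were used, and the calling step was checked on simulated data.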

Additional observations from a re-analysis of the deposited data

How the results depend on the processing

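No paired analysis was possible because each day has 1 array. Over 9 alternatives (refitted normexp, 3 scalings, the authors' value table, the median over probes, 2 filters and a 3-fold limit), no member's called difference changed sign. The normexp fit on all spots was replaced after seeing the data, because 8 spots of extreme local background on day 0 gave it a mean of -1242, against 0.4482 without them. The count of members higher on day 5 than on day 0 was 1 in place of 2 with the refitted normexp (Cdx4 at 0.90) and 1 over probes above background on all arrays, where Cdx4 and Fabp1 have no value. The second filter also left 0 members lower on day 7 than on day 5, in place of 1. With no filter on dim probes 1 member, Cdx4 at -1.23, was lower on day 7 than on day 0, and members higher on day 7 were 6 against either earlier day, in place of 5. They were 4 over probes above background on all arrays, and the 3-fold limit gave 4 against day 5, where Vil1 lies under it.

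Over all genes, the 3-fold limit gave 2137 higher and 1793 lower for day 5 against day 0 (3564 and 3484 at 2-fold), 2169 and 2162 for day 7 against day 0 (3509 and 4137), and 709 and 864 for day 7 against day 5 (1292 and 1815). The refitted normexp gave 851 and 1027 in the last. The balance turned with the 50th percentile for day 7 against day 5 (1565 and 1479) and, for day 7 against day 0, with the authors' value table (3833 and 3548) and quantile normalization (3728 and 3702). On day 7 against day 5, Hox genes higher were 8, but 4 with the refitted normexp and 3 over probes above background on all arrays. Enterocyte genes lower on day 7 than on day 0 were 9, but 5 with the 3-fold limit and 5 over those probes, and those lower than on day 5 were 3, but 1 and, with the refitted normexp, 0. The median over all genes moved by up to 0.15 (log2) with the 50th percentile. Signal near background limits the values of Cdx1, Cdx4, Fabp1, both low days of Lgals2 and Fabp2, and Cdx2 on day 5.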

Other observations

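Cdx factors also act in the blood-forming mesoderm of the yolk sac, and a list of 7 genes of primitive blood was read beside the members. Of 6 compared, 2 were higher and 1 lower on day 7 than on day 5. The haemangioblast factor Tal1 was 4.89-fold and the embryonic globin Hbb-bh1 at least 2.76-fold higher (other probe 0.48 on the log2 scale), with levels of -3.57 and -5.30 on day 7. The erythroid factor Gata1 was 23.1-fold lower, with levels of -3.97, -1.15 and -5.68 on days 0, 5 and 7. Gata1 thus peaked on day 5 as Cdx4 did. On day 7, 1 gene of the list was higher and 3 were lower than on day 0 (median -0.62). Tal1 was among the lower, at 2.17-fold.

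Villin is also present in the proximal tubule of the kidney. Of 9 tubule genes 6 were above background on some array, and the higher ones on day 7 against day 5 were Lrp2 and Cubn, which are also on the visceral endoderm list, while Slc22a6 was 2.89-fold lower and Umod and Slc34a1 were dim on all arrays.

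Among the 779 genes that passed 2-fold upwards between days 5 and 7 and have a promoter in the table, 2.70% held the longer caudal motif, beside 1.80% of 12857 genes compared. The TATA letters showed a like step (12.5% beside 8.80%). The other shares were 9.24% beside 7.1% for Gata, 8.99% beside 7.05% for the short caudal form and 3.98% beside 3.71% for Hnf4. These shares were not tested.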
